A study of Mus musculus with 8 samples.

Results

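The acute phase genes described here were 7 genes of the mouse, Saa1, Saa2, Saa3, Hp, Lrg1, Orm1 and Cp, of 24405 genes listed over 8 single-cell libraries of heart, liver and kidney allografts. They were taken by name and were chosen on their levels in these same libraries, by how they were spread over stromal cells, macrophages, neutrophils, endothelial cells and hepatocytes, so their levels are given as a description with no test. All 7 had a row in the tables of liver PC and of the libraries labelled heart TIL and liver TIL. Cp had no row in the tables of the 3 blood libraries, Saa2 none in the 3 kidney libraries and Saa1 none in kidney PBMC.

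Acute phase proteins are plasma proteins whose output by the liver changes in inflammation, when cytokines such as interleukin 6 and interleukin 1 reach hepatocytes. Serum amyloid A proteins (Saa1, Saa2, Saa3) travel with high density lipoprotein and attract phagocytes, and mouse Saa3 is known as the form made outside the liver. Haptoglobin (Hp) binds free haemoglobin, ceruloplasmin (Cp) is a copper-carrying ferroxidase, orosomucoid 1 (Orm1) is a lipid-binding glycoprotein of plasma, and Lrg1 is a leucine-rich glycoprotein that takes part in TGF-beta signalling. Neutrophils store haptoglobin and Lrg1 protein in their granules, and macrophages, fibroblasts and adipocytes can make Saa3.

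Organs of BALB/c donors had been placed in C57BL/6 recipients, 8 weeks of age, without immunosuppression, and were collected on day 7. The labels give the strain BALB/c and the male sex for all libraries and distinguish peripheral blood mononuclear cells (PBMC) and tissue-infiltrating lymphocytes (TIL) of each organ and parenchymal cells (PC) of liver and kidney. Cells came from 2 recipients per organ, and whether they were pooled in a library is not given in the sources used here. There was no ungrafted or syngeneic control. Each condition was 1 library, so differences between libraries have no replicate check, and intervals at 95% cover counting error only.

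After cells with under 500 unique molecular identifiers (UMIs) were set aside, between 795 and 10000 cells remained in a library, with a median of 581 to 1502 UMIs. Barcodes were shared between libraries. Of 47541 cells kept, 6253 carried a barcode that was also kept in another library, and pairs of libraries shared 1 to 600 such cells. Markers went against the organ in the names of 2 libraries. The library labelled heart TIL held 1056 UMIs of the liver gene Alb and 2 of the atrial gene Myl7, while the library labelled liver TIL held 0 UMIs of Alb and 128 of Myl7. Acta1, an actin of heart and skeletal muscle, had 1 and 206 UMIs. The names are used below only as labels, and no organ is read from them.

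Cell classes were set by markers. Stromal cells had 3 or more UMIs of Dcn, Col3a1 and Col1a2, macrophages 1 or more of Csf1r and neutrophils 1 or more of Csf3r. Cells that met a second rule were set aside as mixed. Stromal cells numbered 11 in liver PC, 13 in the library labelled heart TIL and 120 in that labelled liver TIL, and hepatocytes 25, 19 and 0. B and T cells served as the background. Whether their UMIs of a member, Saa3 in T cells among them, are free RNA or their own was not tested, so a ratio over them is a difference between classes. Levels are given as CPM, the UMIs of a gene over all UMIs of the summed cells of a class, scaled to the usual fixed total.

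The classes were sharp in some libraries and weak in others. In liver PC, 6 of 6 stromal, macrophage and neutrophil markers were at least 2-fold above the other cells. In heart PBMC, 0 of 6 neutrophil markers were, and their summed level was 214608 CPM in neutrophils and 180865 CPM in the other cells. In liver PBMC, 0 of 6 passed as well, at 139843 and 93156 CPM. Macrophage markers passed for 1 of 6 in each of the libraries labelled heart TIL and liver TIL, and for 2 of 6 and 0 of 6 in heart and liver PBMC. T cell markers passed for 1 of 5 in the library labelled heart TIL and in kidney TIL, and for 0 of 5 in kidney PC. The part of these weak classes in the differences between classes was not tested.

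The serum amyloid genes lie together on chromosome 7 of GRCm38. Saa3 (ENSMUSG00000040026) spans chr7:46711998-46715700 on the minus strand, Saa1 (ENSMUSG00000074115) chr7:46740497-46742980 on the minus strand and Saa2 (ENSMUSG00000057465) chr7:46751790-46754313 on the plus strand. Saa1 and Saa2 are thus transcribed away from each other. Their start windows and that of Saa3 are shown because Saa1 and Saa2 had 1 pattern over cells and Saa3 another. Each window runs from 250 bases before to 50 bases after the start, 5′ to 3′ along the gene (RefSeq, GRCm38.p6). For Saa2 and Saa3 this RefSeq start lies inside the GENCODE span given above, not at its edge. Capitals mark a match to the C/EBP motif TTGCNNAA on either strand, and no motif overlapped another in these windows.
Saa1: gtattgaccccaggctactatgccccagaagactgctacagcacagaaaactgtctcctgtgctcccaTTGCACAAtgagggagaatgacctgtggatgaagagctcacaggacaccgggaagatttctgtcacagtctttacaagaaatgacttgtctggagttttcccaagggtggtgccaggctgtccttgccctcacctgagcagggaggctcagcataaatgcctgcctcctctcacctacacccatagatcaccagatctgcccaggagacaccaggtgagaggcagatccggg
Saa2: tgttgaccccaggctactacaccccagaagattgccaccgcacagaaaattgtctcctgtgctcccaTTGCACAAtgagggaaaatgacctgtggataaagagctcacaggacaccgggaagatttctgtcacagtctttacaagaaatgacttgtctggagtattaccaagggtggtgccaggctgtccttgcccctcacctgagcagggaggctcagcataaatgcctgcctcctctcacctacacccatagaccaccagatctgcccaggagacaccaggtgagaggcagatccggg
Saa3: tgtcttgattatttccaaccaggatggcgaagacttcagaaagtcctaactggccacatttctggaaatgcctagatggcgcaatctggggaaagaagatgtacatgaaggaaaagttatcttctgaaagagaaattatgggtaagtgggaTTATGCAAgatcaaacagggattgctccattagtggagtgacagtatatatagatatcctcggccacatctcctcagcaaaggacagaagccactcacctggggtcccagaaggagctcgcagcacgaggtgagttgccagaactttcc
These are chr7:46742931-46743230 for Saa1, chr7:46751583-46751882 for Saa2 and chr7:46715627-46715926 for Saa3. The windows of Saa1 and Saa2 were identical in 95.3% of aligned positions, against 50.9% for Saa1 and Saa3 and 50.2% for Saa2 and Saa3. The window of Lrg1 gave 49.9%, 49.1% and 48.9% with Saa1, Saa2 and Saa3. The values for Saa3 are thus near those of a gene outside this family. The C/EBP motif starts 182, 183 and 99 bases before the RefSeq start of Saa1, Saa2 and Saa3. It occurs in 10.8% of all 32851 windows of this length. GGANTTTCC for NF-kB, found in 1.25% of windows, and TTCNNNGAA for STAT, found in 8.30%, had no match in the 3 windows. Only these strings were searched, and looser forms of the sites were not looked for. Lrg1 (chr17:56119678-56122001, minus strand) and Cp (chr3:19957054-20009145, plus strand) have start windows in the same table, and Hp (chr8:109575128-109579172, minus strand) and Orm1 (chr4:63344560-63348163, plus strand) are named only.

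Near-identical copies limit what can be said of Saa1, Saa2 and Orm1. The main transcripts of Saa1 and Saa2 were identical in 93.9% of aligned positions, and 13.2% of the 50-base windows of Saa1 also occurred in Saa2. Orm1 shared 20.4% of such windows with Orm2. Reads that aligned to several places had been removed by the authors, so the counts of these genes come from the stretches that differ, and UMIs may be lost unequally. Saa3 was far from both, with 1.61% of the windows of Saa1 and 0 windows of Saa2 found in it.

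Saa3 was the most abundant member in the grafts and was highest in stromal cells. In liver PC its level was 27207 CPM (95% interval 25293 to 29227) in stromal cells, 7567 CPM (7457 to 7677) in macrophages and 5020 CPM (4794 to 5254) in neutrophils. Endothelial cells had 1859 CPM, hepatocytes 1413 CPM (1081 to 1815), B cells 1722 CPM and T cells 2321 CPM. Hepatocytes, which make Saa1 and Saa2, were thus below T cells for Saa3.

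Stromal cells, macrophages and neutrophils kept this order in the library labelled heart TIL, at higher levels. Saa3 had 43893 CPM (40201 to 47833) in its stromal cells, 9490 CPM in macrophages, 7021 CPM in neutrophils, 4771 CPM in endothelial cells, 2952 CPM in hepatocytes and 4980 CPM in T cells. Levels were lower in the library labelled liver TIL, with 2534 CPM (2250 to 2845) in stromal cells, 2403 CPM (2309 to 2499) in macrophages, 2037 CPM in neutrophils, 781 CPM in endothelial cells and 1189 CPM in T cells. There, the intervals of stromal cells and macrophages overlapped.

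**Figure D1:**
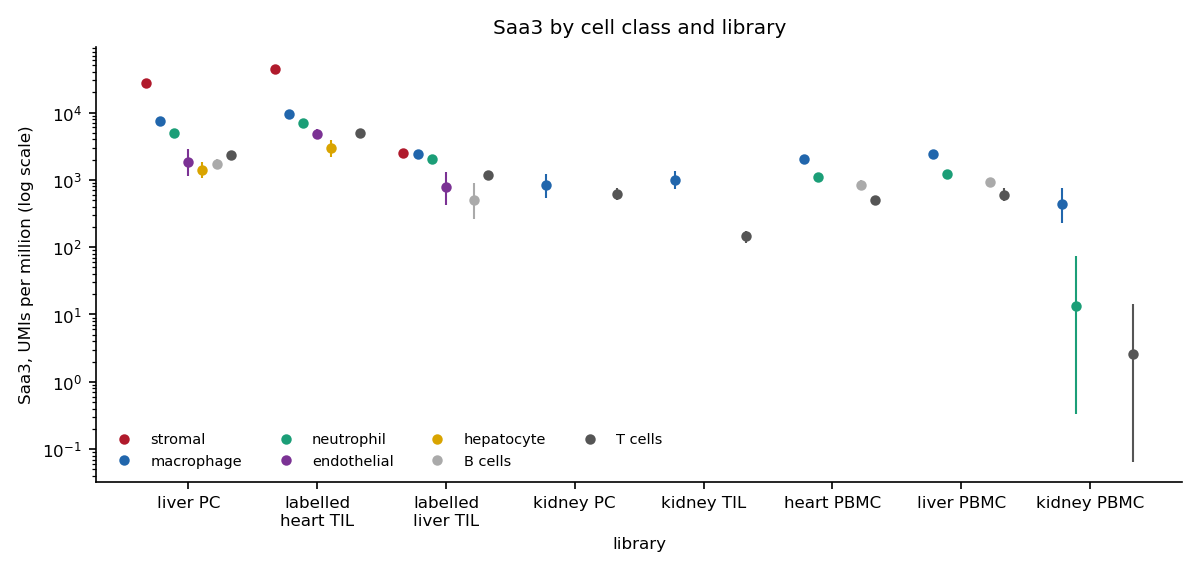
Saa3 in CPM (log scale) by library, with a point for each of 7 cell classes that had at least 10 cells and at least 1 UMI of the gene, and bars for the exact 95% Poisson interval. Stromal cells reach 27207 in liver PC and 43893 in the library labelled heart TIL, above every other class of those libraries, and kidney PBMC has 1 UMI each in neutrophils and T cells.

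Folds are ratios of the CPM of the 2 classes, and log2 ratios had 1 CPM added to both. Over B and T cells, Saa3 in stromal cells of liver PC was 11.8-fold higher (log2 3.55, 95% interval 3.45 to 3.66). In the libraries labelled heart TIL and liver TIL it was 8.81-fold and 2.14-fold. Without cells whose barcode another library also held, these 3 ratios were log2 3.72, 3.07 and 1.27. In macrophages the same ratio was 3.27-fold in liver PC, 1.91-fold in the library labelled heart TIL and 2.03-fold in that labelled liver TIL. For neutrophils it was 2.17-fold, 1.41-fold and 1.72-fold. Hepatocytes stood at 0.610-fold in liver PC and 0.593-fold in the library labelled heart TIL, both with intervals under 1, and in liver PC at log2 -0.05 with mixed cells kept.

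Few stromal cells carried these levels, and they did so unevenly. In liver PC 10 of 11 stromal cells held Saa3, with a median of 42 UMIs and a highest of 209 UMIs. Of 13 stromal cells in the library labelled heart TIL, 10 held it, with a median of 12 and a highest of 126. Of 120 in the library labelled liver TIL, 75 held it, and the median was 1 UMI. Where cells that met several rules were kept, stromal cells of liver PC numbered 23 and the ratio was log2 2.63. In the library labelled liver TIL it was then 0.83, below 2-fold.

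Stromal cells of the library labelled liver TIL could be divided by markers. Mesothelial genes (Msln, Upk3b, Upk1b and Lrrn4) were read first, then contractile genes, the Reln set and the fibroblast set. Cells that met the mesothelial rule are not described here. Saa3 was 4623 CPM (3830 to 5532) in 26 cells with the fibroblast genes Pi16, Dpt, Clec3b or Cd34, 2821 CPM in 50 other cells, and 1505 CPM (1098 to 2014) in 29 cells with Reln, Lrat, Ecm1 or Hgf. It was 335 CPM (109 to 782) in 12 cells with the contractile genes Acta2, Myh11, Rgs5 or Tagln. The first and the last of these intervals did not overlap. Among the subsets described, Hp ranged from 134 CPM in the contractile cells to 991 CPM in the other cells.

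Because stromal cells were rare, most Saa3 UMIs lay elsewhere. Of 81740 Saa3 UMIs in liver PC, stromal cells held 0.916%, macrophages 22.4%, neutrophils 2.27% and T cells 24.2%. Mixed cells, which were set aside, held 36.5%, the largest share, and cells that met no rule 13.6%. Thinned to 500 UMIs a cell, a Saa3 UMI was seen in 75.3% of macrophages (72.8 to 77.7), 74.4% of neutrophils, 90.9% of stromal cells and also 57.9% of T cells (56.4 to 59.3). T cells of the library labelled heart TIL reached 81.1%, and its macrophages 87.2%. A Saa3 UMI in a cell was thus no mark of its class in these libraries.

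Kept cells of the kidney grafts held little Saa3. In kidney TIL, the 7995 barcodes under 500 UMIs, left out of the classes, had 463 CPM against 251.5 CPM in all kept cells. Macrophages of kidney PC had 825 CPM (534 to 1218) from 25 UMIs and T cells 614 CPM (502 to 744). In kidney TIL, macrophages had 998 CPM (730 to 1331) from 46 UMIs, tubule cells 276 CPM and T cells 144 CPM (117 to 176). In kidney TIL the macrophage level was 6.92-fold that of B and T cells, with an interval of log2 2.25 to 3.31, while in kidney PC the interval of the ratio included 0.

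In blood, Saa3 was higher in macrophages than in neutrophils. Heart PBMC had 2057 CPM (1889 to 2235) in macrophages, 1099 CPM in neutrophils, 842 CPM in B cells and 500 CPM in T cells. Liver PBMC had 2457 CPM, 1221 CPM, 930 CPM and 605 CPM in the same classes. Kidney PBMC had 440 CPM from 12 UMIs in macrophages and 1 UMI each in neutrophils and T cells. Over all kept cells Saa3 stood at 1194 CPM in heart PBMC, 1441 CPM in liver PBMC and 32.5 CPM in kidney PBMC, from 34 UMIs.

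Saa1, Saa2 and Orm1 followed hepatocyte RNA. In hepatocytes of liver PC, Saa1 had 5097 CPM (4446 to 5817), Saa2 7692 CPM (6887 to 8565) and Orm1 5653 CPM (4966 to 6409). In hepatocytes of the library labelled heart TIL the levels were 3994 CPM, 6310 CPM and 3184 CPM. T cells of that liver PC library held 382, 425 and 388 UMIs of the 3 genes, which for Saa1 was 44.9 CPM. Over B and T cells, hepatocytes were 113-fold (Saa1), 154-fold (Saa2) and 124-fold (Orm1) higher in liver PC. With mixed cells kept, these ratios fell from log2 6.79, 7.24 and 6.92 to 5.74, 6.0 and 5.85.

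In myeloid cells the same 3 genes stood near the level of lymphocytes. Macrophages of liver PC held 94, 97 and 96 UMIs, which for Saa2 was 40.1 CPM, and all 3 intervals of the ratio over B and T cells included 0 on the log2 scale. In neutrophils they had 70.4 CPM, 75.8 CPM and 81.2 CPM. The ratios there were log2 0.63 (0.01 to 1.22) for Saa1, 0.59 (-0.01 to 1.15) for Saa2 and 0.82 (0.25 to 1.37) for Orm1, and that of Orm1 was -0.27 when mixed cells were kept. Endothelial cells of the library labelled heart TIL stood higher, at 2.31-fold (Saa1), 2.35-fold (Saa2) and 2.94-fold (Orm1) of B and T cells from 10, 13 and 10 UMIs, with intervals above 1. With mixed cells kept all 3 were below 2-fold, at log2 0.92, 0.77 and 0.30. In stromal cells of liver PC 1 UMI of Saa1 and 0 UMIs of Saa2 and Orm1 were counted, which, at 3 UMIs, allows up to 109 CPM for each of the latter.

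Their ratio to Alb gave a second view. Alb is one of the genes of the hepatocyte rule, so Alb in those cells is raised by the rule. In T cells of liver PC 0.982 Saa1 UMIs (0.851 to 1.13), 1.09 Saa2 UMIs and 0.997 Orm1 UMIs were counted per Alb UMI. In macrophages these were 0.718, 0.740 and 0.733, in neutrophils 0.897, 0.966 and 1.03, and in hepatocytes 1.37, 2.06 and 1.52. T cells of the library labelled heart TIL had 1.42, 1.81 and 1.12 per Alb UMI and its hepatocytes 2.23, 3.52 and 1.77. In liver PC the intervals of hepatocytes and T cells did not overlap for Saa2 and Orm1.

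**Figure D2:**
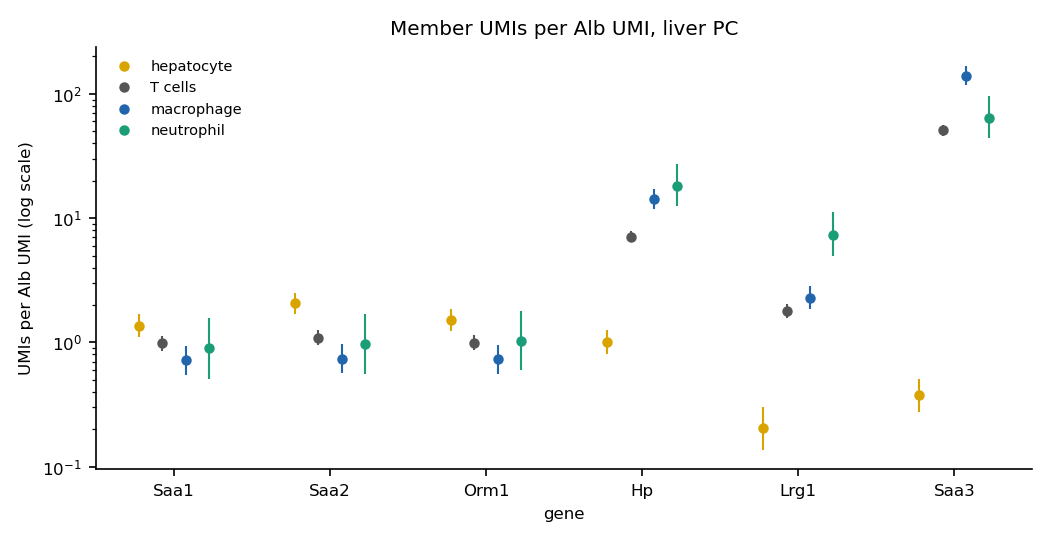
UMIs of 6 members per UMI of Alb in liver PC (log scale), by cell class, with exact 95% intervals. Saa1, Saa2 and Orm1 lie between 0.718 and 2.06 in all 4 classes, while Hp, Lrg1 and Saa3 are lowest in hepatocytes, at 1.01, 0.205 and 0.379.

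Where Alb was at or near 0, so were these genes. The library labelled liver TIL held 11 UMIs of Saa1, 2 of Saa2 and 7 of Orm1 in all kept cells. Heart PBMC held 10, 6 and 55, liver PBMC 1, 1 and 2, and the kidney libraries at most 4 of any. The 55 Orm1 UMIs of heart PBMC, with 2 Alb UMIs in all its barcodes, included 23 in neutrophils (7.92 CPM, 5.02 to 11.9), 6 in macrophages and 5 in B and T cells (10.6 CPM, 3.43 to 24.6). The 2 intervals overlapped.

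Of the close relatives, Saa4 had 12 UMIs (278 CPM) and Orm2 44 UMIs (1019 CPM) in hepatocytes of liver PC. Over all cells of that library they had 51 and 274 UMIs, Orm3 15 and Heph, a ferroxidase related to Cp, 3.

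Hp was spread over several classes. In liver PC its level was 3753 CPM (3198 to 4378) in hepatocytes, 1998 CPM (1505 to 2600) in stromal cells, 1423 CPM (1304 to 1550) in neutrophils, 770 CPM (735 to 806) in macrophages and 325 CPM (313 to 337) in T cells. The same classes had 1389, 2279, 1117, 808 and 543 CPM in the library labelled heart TIL. The library labelled liver TIL had no hepatocytes, and the others were 616 CPM (480 to 778) in stromal cells, 300.5 CPM (237 to 376) in neutrophils, 166 CPM in macrophages and 133 CPM in T cells. In all 3 libraries the intervals of stromal cells and neutrophils lay above that of macrophages. Macrophages lay above T cells in liver PC and in the library labelled heart TIL, and their intervals overlapped in that labelled liver TIL.

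Over B and T cells, Hp in stromal cells was 6.16-fold higher in liver PC, 4.20-fold in the library labelled heart TIL and 4.69-fold in that labelled liver TIL. In neutrophils the folds were 4.39, 2.06 and 2.29, and in macrophages 2.37, 1.49 and 1.26. With mixed cells kept, the neutrophil ratios were log2 0.99, 0.68 and 0.90, all below 2-fold, and the stromal ratios 1.64, 1.33 and 1.68. Hp in stromal cells was also concentrated. In liver PC 7 of 11 stromal cells held it and 1 cell had 27 of the 55 UMIs. Of 120 stromal cells in the library labelled liver TIL, 24 held it. Hp UMIs per Alb UMI were 1.01 in hepatocytes of liver PC, 7.10 in T cells, 14.2 in macrophages and 18.1 in neutrophils.

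Summed over all kept cells, Hp was higher in heart and liver PBMC, at 5264 and 2158 CPM, than in the other 6 libraries, at 54.8 to 666 CPM. In neutrophils its level was 5736 CPM (5649 to 5824) in heart PBMC, 2463 CPM (2396 to 2531) in liver PBMC and 1849 CPM (1555 to 2182) in kidney PBMC. In macrophages it was 5219, 1790 and 1063 CPM. T cells had 2600, 1021 and 214 CPM, and B cells of heart and liver PBMC 3975 and 1687 CPM. Neutrophils were thus 1.91-fold and 1.73-fold above B and T cells in heart and liver PBMC, and 8.68-fold in kidney PBMC. The kidney library was the one in which neutrophil markers set the class apart, with 6 of 6 markers 2-fold higher.

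Of the graft classes, hepatocytes and neutrophils had the most Lrg1 in liver PC and the libraries labelled heart TIL and liver TIL, the last without hepatocytes. In liver PC it had 765 CPM (526 to 1074) in hepatocytes, 574 CPM (499 to 656) in neutrophils, 124 CPM (110 to 139) in macrophages and 81.8 CPM (75.9 to 88.1) in T cells. Levels in the library labelled heart TIL were 926, 383, 137 and 131 CPM. In that labelled liver TIL they were 367 CPM (296 to 449) in neutrophils, 97.9 CPM in macrophages and 81.8 CPM in T cells.

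In stromal cells Lrg1 had few UMIs. It had 0 UMIs in those of liver PC, which allows up to 109 CPM. In those of the library labelled heart TIL it also had 0, which allows up to 253 CPM. In those of the library labelled liver TIL it had 9 UMIs (79.2 CPM, 36.2 to 150). T cells had 81.8, 131 and 81.8 CPM in these libraries, so stromal cells cannot be placed below them. Endothelial cells had 531 CPM (195 to 1156), 193 CPM (71.0 to 421) and 335 CPM (123 to 729) in these 3 libraries, from 6 UMIs in each, and the ratio over B and T cells was log2 2.69 (1.25 to 3.83) in liver PC, from 10 cells, and 0.46 with mixed cells kept. Over B and T cells, neutrophils were 7.02-fold, 2.92-fold and 4.46-fold higher, and macrophages 1.52-fold, 1.05-fold and 1.19-fold. With mixed cells kept, the neutrophil ratios were log2 1.53, 1.12 and 1.59.

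In blood, Lrg1 in neutrophils was 4010 CPM (3938 to 4084) in heart PBMC, 1898 CPM (1839 to 1958) in liver PBMC and 409 CPM (278 to 581) in kidney PBMC. T cells had 1718, 696 and 38.2 CPM. As for Hp, the fold of neutrophils over B and T cells was small in heart and liver PBMC, 1.97 and 1.75, and large in kidney PBMC, 10.8.

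**Figure D3:**
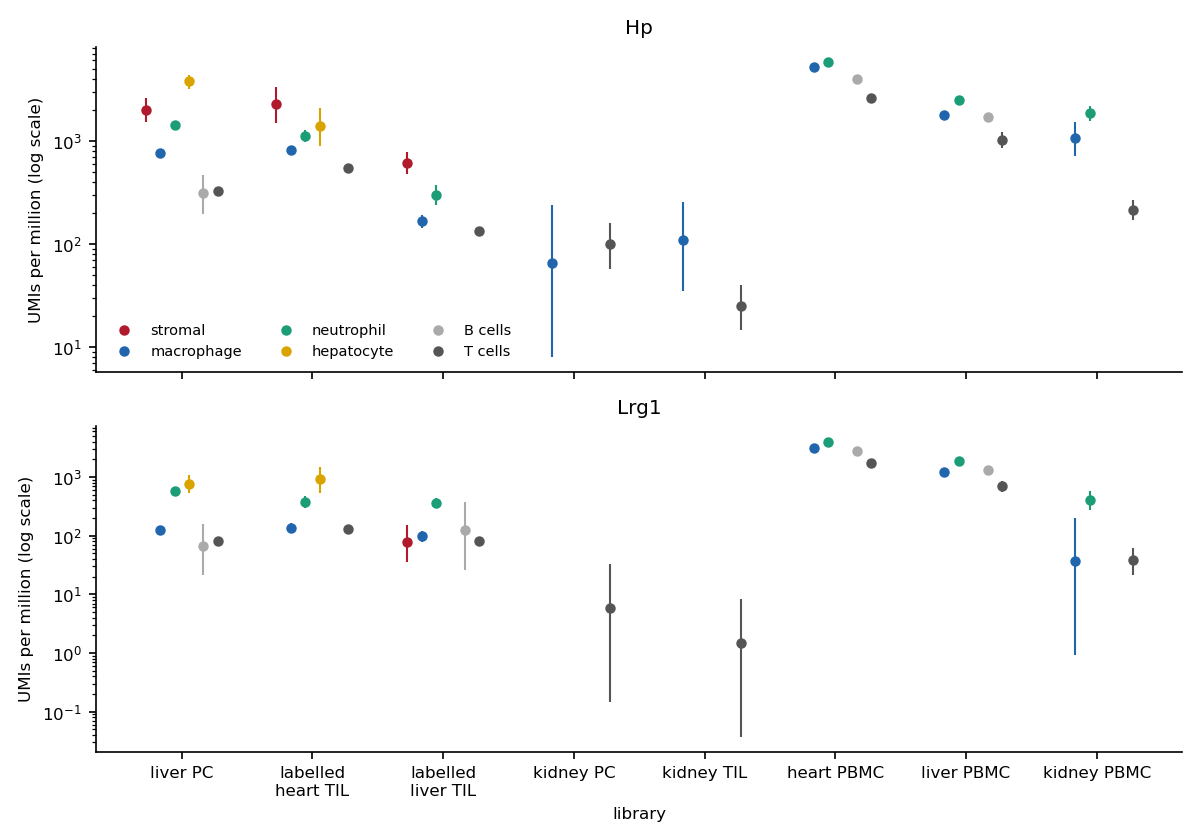
Hp and Lrg1 in CPM (log scale) by library, with a point for each of 6 cell classes that had at least 10 cells and at least 1 UMI of the gene, and bars for the exact 95% Poisson interval. In heart PBMC neutrophils, macrophages, B and T cells lie between 2600 and 5736 for Hp, and in liver PC hepatocytes have the highest points, 3753 for Hp and 765 for Lrg1, where the Lrg1 interval overlaps that of neutrophils.

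The makeup of the member UMIs shows how alike blood classes were. In heart PBMC, Hp was 52.8% of the member UMIs in neutrophils, 51.9% in B cells and 53.9% in T cells. Lrg1 was 36.9%, 36.7% and 35.6%, and Saa3 10.1%, 11.0% and 10.4%. Macrophages differed, with 19.7% Saa3. In liver PBMC, Saa3 was 21.9% in neutrophils, 23.5% in B cells, 26.1% in T cells and 44.8% in macrophages. In B and T cells the 3 genes thus had nearly the proportions of neutrophils. In kidney PBMC Saa3 was 1 of 172 member UMIs in neutrophils, 1 of 100 in T cells and 28.6% in 31 macrophages with 42 member UMIs.

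In the grafts the proportions did differ. Per Hp UMI, 0.403 Lrg1 UMIs (0.342 to 0.474) were counted in neutrophils of liver PC, 0.161 (0.142 to 0.182) in macrophages and 0.252 (0.232 to 0.274) in T cells. The ratios were 1.22, 0.591 and 0.618 in these classes of the library labelled liver TIL. Per Hp UMI, 3.53 Saa3 UMIs were counted in neutrophils of liver PC, 9.83 in macrophages and 7.15 in T cells. T cells stood between the 2 myeloid classes in liver PC in both ratios.

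Subsets of myeloid cells set Hp and Lrg1 apart from Saa3 in some comparisons. Rules were applied in turn, Kupffer, C1q and then monocyte genes in macrophages and granule before mature genes in neutrophils, and a cell stayed with the first rule it met. Among macrophages, cells with 3 or more UMIs of Chil3, Ly6c2 and Plac8, genes of recruited monocytes, were compared with cells with 3 or more UMIs of the C1q genes. Hp was higher in the former by 2.44-fold in liver PC, 2.04-fold in the library labelled heart TIL and 2.17-fold in that labelled liver TIL. Lrg1 was higher by 1.72-fold, 1.59-fold and 2.59-fold, and all 6 intervals were above 1. Saa3 stood at 0.929-fold, 0.805-fold and 1.40-fold, so its direction differed between libraries.

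Cells with the Kupffer cell genes Clec4f, Vsig4, Cd5l and Timd4 were low in Saa3. They numbered 75 in liver PC and 32 in the library labelled heart TIL, where Saa3 was 0.330-fold and 0.362-fold that of C1q cells. Hp was 0.401-fold and 0.616-fold. Cp went the other way, at 4.22-fold (log2 1.99, 0.87 to 3.21) in liver PC from 11 and 20 UMIs, and at 3.47-fold in the library labelled heart TIL from 4 and 11 UMIs, with an interval that included 1.

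Among neutrophils, cells with 2 or more UMIs of Retnlg, Cxcr2 and Il1b, genes of mature neutrophils, were compared with neutrophils that met none of the subset rules, so cells of the granule subsets were left out. Lrg1 was higher in them by 7.32-fold (log2 2.86, 2.06 to 3.81) in liver PC, 6.64-fold in the library labelled heart TIL, 2.10-fold in that labelled liver TIL and 2.21-fold in liver PBMC. Hp was higher by 2.80-fold, 1.78-fold, 2.99-fold and 1.59-fold, and by 2.27-fold in kidney PBMC. Saa3 was lower, at 0.933-fold, 0.717-fold, 0.715-fold and 0.443-fold, with an interval that included 1 in liver PC alone. The comparison cells of these libraries held 13, 14, 27 and 79 Lrg1 UMIs, and 1 UMI of Csf3r was enough to class a cell with them. Whether these folds follow maturity or a weak class was not tested. In heart PBMC, where 3198 of 3475 neutrophils fell in the mature subset, 267 cells had 2 or more UMIs of the granule genes Ngp, Camp and Ltf. These stood at 0.932-fold of the mature cells for Hp, 1.04-fold for Lrg1 and 0.81-fold for Saa3 (log2 -0.30, -0.50 to -0.12). Saa3 was thus higher in the mature cells than in the granule cells there.

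**Figure D4:**
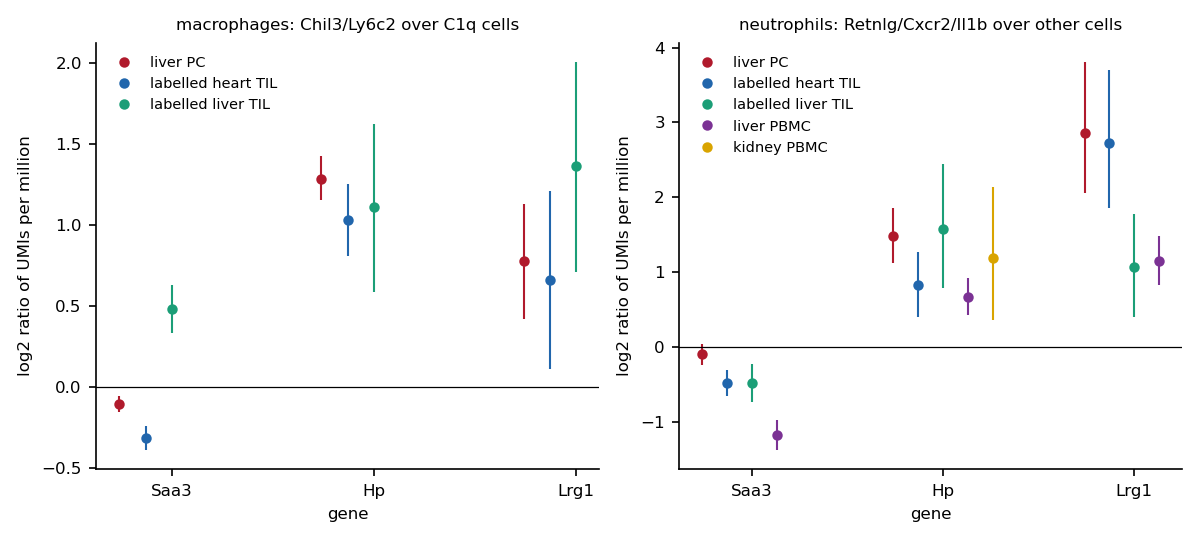
Log2 ratios of Saa3, Hp and Lrg1 between subsets of macrophages (left) and of neutrophils (right), a point per library with its exact 95% interval, where both subsets had over 3 UMIs. Hp and Lrg1 lie above 0 in all libraries shown, while Saa3 lies at or below 0 in neutrophils.

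Over all kept cells Cp had the fewest UMIs of the 7 members in liver PC and the library labelled heart TIL, 279 and 218. In that labelled liver TIL its 57 UMIs were more than those of Saa1, Saa2 or Orm1. In liver PC it had 348 CPM (195 to 573) in hepatocytes from 15 UMIs, 327 CPM (150 to 621) in stromal cells from 9, 18.2 CPM (13.2 to 24.4) in macrophages from 44, 18.9 CPM in neutrophils and 6.70 CPM in T cells. In the library labelled liver TIL it had 96.8 CPM (48.3 to 173) in stromal cells from 11 UMIs, 6.79 CPM in macrophages and 2.73 CPM in T cells. T cells of the library labelled heart TIL had 20.7 CPM (16.5 to 25.6) and its macrophages 25.3 CPM (16.0 to 37.9), and other classes held at most 6 UMIs. Tubule cells of kidney PC and kidney TIL had 142 CPM and 166 CPM, from 2 and 6 UMIs. Macrophages of liver PC were log2 1.33 (0.85 to 2.05) above B and T cells, and below 2-fold with doubled marker thresholds (log2 0.86) or with mixed cells kept (log2 0.39).

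**Figure D5:**
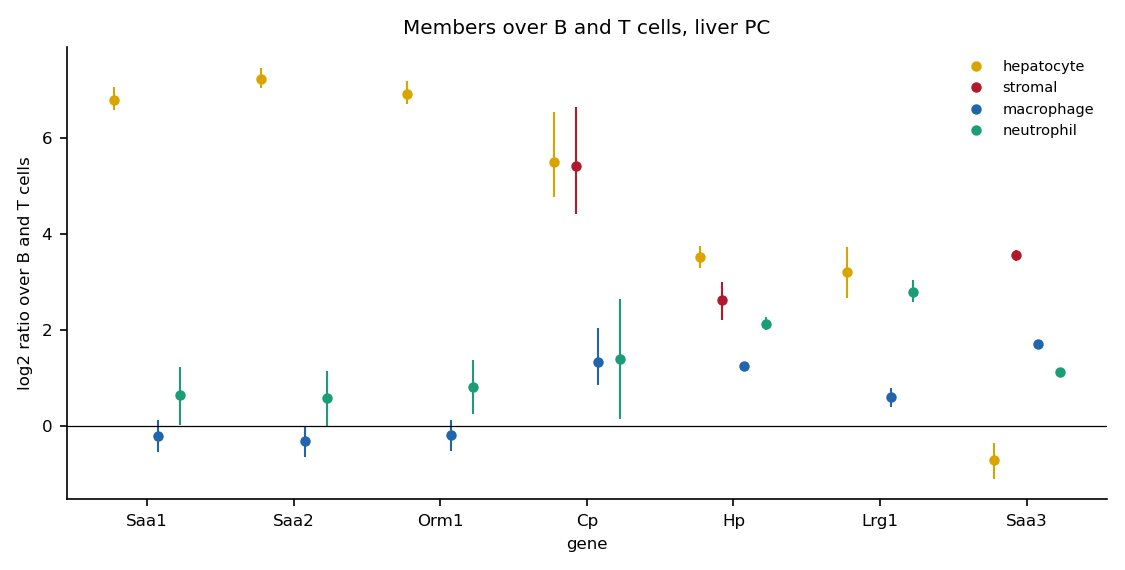
Log2 ratio of each member over B and T cells in liver PC, by class, with exact 95% intervals, where the class had over 3 UMIs. Of the 4 classes shown, hepatocytes lead Saa1, Saa2 and Orm1, at 6.79, 7.24 and 6.92, while Saa3 is 3.55 in stromal cells and -0.71 in hepatocytes.

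Counts of members at least 2-fold above B and T cells need the share of all genes that were, since the members were picked with these ratios known. Genes with 10 or more UMIs in the class were counted, and 1 CPM was added to both sides of the ratio. In stromal cells of liver PC, Saa3 and Hp passed, of 2 members with enough UMIs, where 36.9% of 452 genes did. Saa3, Hp and Cp passed in the library labelled liver TIL, where 17.5% of genes did. In hepatocytes of liver PC, 6 of 7 members passed, Saa3 being the exception, where 43.0% did.

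In macrophages, 3 of 7 members tested passed in liver PC, Saa3, Hp and Cp (14.3% of all genes), and 0 of 7 in the library labelled heart TIL (7.73%). Saa3 passed, as 1 of 3 tested, in the library labelled liver TIL (8.12%), heart PBMC (7.64%) and liver PBMC (12.4%). In neutrophils 3 of 6 members tested passed in liver PC, Saa3, Hp and Lrg1 (18.6%). Hp and Lrg1 passed in the library labelled heart TIL, as 2 of 6 (11.0%), in that labelled liver TIL, as 2 of 3 (9.80%), and in kidney PBMC, as 2 of 2 (30.6%). In heart PBMC 0 of 4 passed (8.29%) and in liver PBMC 0 of 3 (9.20%). With mixed cells kept, Saa3 and Hp in macrophages of liver PC were at log2 0.91 and 0.61, and Saa3 in its neutrophils at 0.78, all below 2-fold. Saa3 in those neutrophils was also below it with doubled thresholds (log2 0.75) and as a mean over cells (0.91), and in macrophages of heart PBMC without the 5% of cells with the most UMIs (0.97). Saa3 in macrophages of the library labelled liver TIL was below it with mixed cells kept (0.73) and as a mean over cells (0.93). The counts of members are a description, since the rule that picked the members used the same ratios.

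Other acute phase genes gave the members their setting. Of 13 genes of the acute phase that are also made outside the liver, 8 had enough UMIs in stromal cells of liver PC, and 8 of these 8 were at least 2-fold above B and T cells, where 36.9% of all genes were, with a median log2 ratio of 5.82 against 0.169 for all genes tested. They were C3, Lcn2, Mt1, Mt2, Steap4, Fn1, Timp1 and Serping1. The floor of 10 UMIs was set in the class alone. It left out genes that were low in these few stromal cells, from the list and from all genes alike, which favours high ratios. The same floor was used for the other classes and lists, with the same effect on genes low in the class. Complement C3 had 6393 CPM in stromal cells and 88.6 CPM in B and T cells, and Lcn2, which binds bacterial siderophores, 944 and 354 CPM. Of 12 tested in the library labelled liver TIL 9 passed, where 17.5% of all genes did, C3 at 994 and 86.5 CPM among them. In macrophages 6 of 11 passed in liver PC, 2 of 12 in the library labelled heart TIL and 3 of 11 in that labelled liver TIL, where 14.3%, 7.73% and 8.12% of all genes did. In neutrophils 7 of 10, 5 of 9 and 4 of 12 passed, where 18.6%, 11.0% and 9.80% did. In hepatocytes of liver PC 5 of 5 passed, where 43.0% did, with C3, Lcn2, Mt1 and Mt2 among them. Their median log2 ratio was 5.84, against 0.642 for all genes tested, so high ratios of these genes were not particular to stromal cells. In blood, 3 of 8 and 1 of 9 passed in macrophages of heart and liver PBMC, where 7.64% and 12.4% of all genes did. In neutrophils of heart, liver and kidney PBMC 2 of 10, 4 of 9 and 3 of 3 passed, where 8.29%, 9.20% and 30.6% did, and in heart PBMC Serpina3g and Mt2 were at least 2-fold lower, as many as were higher.

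Of 14 further acute phase proteins secreted by the liver, among them the fibrinogen chains, 11 could be tested in hepatocytes of liver PC and 11 passed, where 43.0% of all genes did. In macrophages 0 of 10 passed both there (14.3% of all genes) and in the library labelled heart TIL (7.73%), and in neutrophils 1 of 3, Fgg, and 0 of 3 (18.6% and 11.0%). In stromal cells 0 had enough UMIs. Alb, Ttr, Trf, Apoa1, Rbp4 and Ahsg, whose output falls in the acute phase, passed in hepatocytes as well, 6 of 6 against the same 43.0%. The hepatocyte rule used Alb, Ttr, Apoa1 and Ahsg of these genes, and Serpina1a and Serpina1b of the 11 above. The levels of those genes in hepatocytes are thus raised by the rule, and their passing adds nothing.

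The cytokines that induce the acute phase were measured in the same cells. Of 9 such genes, 4 had enough UMIs in neutrophils of liver PC and the libraries labelled heart TIL and liver TIL, and all 4, Osm, Il1a, Il1b and Tnf, passed in each, where 18.6%, 11.0% and 9.80% of all genes did. The floor of 10 UMIs left out the cytokines that were low in neutrophils, so these counts do not describe the whole list. In macrophages 2 of 5 passed in liver PC (14.3% of all genes), 1 of 4 in the library labelled heart TIL (7.73%) and 0 of 4 in that labelled liver TIL (8.12%). In blood, 2 of 3, 3 of 3 and 2 of 2 passed in neutrophils of heart, liver and kidney PBMC (8.29%, 9.20% and 30.6% of all genes), and 1 of 2 and 0 of 1 in macrophages of heart and liver PBMC (7.64% and 12.4%). Il1b had 6357 CPM in neutrophils of liver PC, 2558 CPM in those of the library labelled heart TIL and 3906 CPM in those of the library labelled liver TIL, against 586, 533 and 1057 CPM in B and T cells. Il1b is also a gene of the mature neutrophil subset. Il6 was near its limit of detection, with 10 UMIs (4.14 CPM) in macrophages of liver PC and 4 (0.466 CPM) in B and T cells.

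Of 10 signalling and transcription genes, Cebpd, a C/EBP factor of the acute phase, passed, as 1 of 2 and 1 of 3 tested, in stromal cells of liver PC (545 CPM against 21.8) and of the library labelled liver TIL (176 against 35.5). In those cells 36.9% and 17.5% of all genes passed, and counts this small cannot be set apart from these shares. In macrophages 4 of 9, 1 of 9 and 1 of 9 of the list passed in liver PC and the libraries labelled heart TIL and liver TIL, where 14.3%, 7.73% and 8.12% of all genes did, and in neutrophils 5 of 8, 4 of 4 and 4 of 7, where 18.6%, 11.0% and 9.80% did. In blood 0 of 7 and 1 of 8 passed in macrophages of heart and liver PBMC (7.64% and 12.4%), and 2 of 9, 3 of 10 and 3 of 3 in neutrophils of heart, liver and kidney PBMC (8.29%, 9.20% and 30.6%). Socs3, a feedback inhibitor of STAT3, passed in neutrophils of liver PC and the libraries labelled heart TIL and liver TIL, at 436, 372 and 367 CPM against 82.5, 125 and 115 CPM. Of 8 cytokine receptors, Tnfrsf1a passed in stromal cells of liver PC, as 1 of 1 tested, and Il6st and Tnfrsf1a in those of the library labelled liver TIL, as 2 of 2 (36.9% and 17.5% of all genes in those cells). In macrophages of the 3 graft libraries 2 of 6, 1 of 3 and 2 of 3 receptors passed (14.3%, 7.73% and 8.12% of all genes), and in neutrophils 1 of 2, 1 of 1 and 1 of 2 (18.6%, 11.0% and 9.80%). In blood 0 of 2 and 2 of 5 passed in macrophages of heart and liver PBMC (7.64% and 12.4%), and 0 of 5, 1 of 6 and 2 of 2 in neutrophils of heart, liver and kidney PBMC (8.29%, 9.20% and 30.6%). Of 13 receptors and partners of the products, 12 of 13 passed in macrophages of liver PC (14.3% of all genes), 8 of 12 in the library labelled heart TIL (7.73%) and 7 of 11 in that labelled liver TIL (8.12%). In blood macrophages 1 of 4 passed in heart PBMC (7.64%) and 3 of 9 in liver PBMC (12.4%), where Tgfbr2 was at least 2-fold lower. In neutrophils 6 of 7, 2 of 5 and 3 of 7 passed in the 3 graft libraries (18.6%, 11.0% and 9.80%), and 3 of 8, 3 of 11 and 1 of 1 in heart, liver and kidney PBMC (8.29%, 9.20% and 30.6%). Those in macrophages of liver PC included Fpr2, a receptor of serum amyloid A, at 320 and 75.6 CPM, Lrp1 at 157 and 26.9 CPM and Cd163, the receptor of haptoglobin with haemoglobin, at 15.7 and 2.56 CPM.

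Between organs the blood libraries can be set side by side. Over all kept cells, Hp had 5264 CPM in heart PBMC, 2158 CPM in liver PBMC and 526 CPM in kidney PBMC. Lrg1 had 3563, 1643 and 97.3 CPM. Saa3 did not share this order, with 1194, 1441 and 32.5 CPM. In kidney PBMC the 8857 barcodes under 500 UMIs, left out of these sums, were higher, with Hp at 1390 CPM and Lrg1 at 326 CPM. Kept cells of kidney PBMC numbered 1143, of which 111 were neutrophils, against 3475 of 7772 in heart PBMC and 2757 of 6822 in liver PBMC. Fewer neutrophils and less RNA per neutrophil cannot be told apart in such sums. In neutrophils alone, liver PBMC stood at 0.429-fold of heart PBMC for Hp, 0.473-fold for Lrg1 and 1.11-fold for Saa3. Heart PBMC stood at 3.10-fold of kidney PBMC in neutrophils for Hp and at 9.80-fold for Lrg1 (log2 3.29, 2.79 to 3.85), so both gaps were present within the class as well. They were also present in T cells, taken as background. There heart PBMC stood at 12.2-fold of kidney PBMC for Hp and 45-fold for Lrg1, and liver PBMC at 0.393-fold and 0.405-fold of heart PBMC. Saa3 had 1 UMI in the 111 neutrophils of kidney PBMC and 1099 CPM in those of heart PBMC.

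In TIL, macrophages of the library labelled liver TIL were compared with those labelled heart TIL. Saa3 was 0.253-fold (log2 -1.98, -2.05 to -1.92), Hp 0.205-fold and Lrg1 0.713-fold (log2 -0.48, -0.88 to -0.10). With the 2 labels exchanged, each direction turns. T cells moved the same way for Saa3, with 1189 CPM in the library labelled liver TIL and 4980 CPM in that labelled heart TIL, so the gap between the libraries was also present in the cells taken as background.

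Genes with the pattern most like each member were ranked by Pearson's r of log2(CPM + 10) over 31 sums of a class in a library, among 11365 genes, the members included. Only sums of at least 20 cells were used. Stromal cells of liver PC and of the library labelled heart TIL, where Saa3 was highest, were thus left out, as were hepatocytes of the latter. The sums share libraries and depth, so r is a description. Saa2 was most like Alb (r = 0.996), and Saa1 was most like Saa2 (0.994) and, outside the members, Alb (0.990). Orm1 was most like Saa1 (0.976) and, outside the members, Alb (0.975). Alb is a gene of the hepatocyte rule, and hepatocytes of liver PC were the only hepatocyte sum used. Alb is raised in that sum by the rule, so r with Alb rests in part on the rule. Saa3 was most like Apoe (0.857), Cd38 (0.844) and Ctsb (0.812). Hp was most like Wfdc21 (0.914), Trem3 (0.903) and Lcn2 (0.899), and Lrg1 most like Wfdc21 (0.943) and Steap4 (0.914). Cp was most like Gm10039 (0.899), Selenbp1 (0.889) and Gm15920 (0.868). Among members, Hp and Lrg1 had r = 0.835, Saa1 and Saa3 0.488 and Lrg1 and Cp -0.21.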

How the data were processed

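The 8 deposited tables list unnormalized UMI counts, with genes in rows and barcodes in columns, made by the authors by Microwell-seq with the Drop-seq tools and STAR on GRCm38 with GENCODE annotation, without reads that aligned to several places and with UMIs of a gene merged at 1 base of difference. Each table lists 10000 barcodes, with 3418722 to 19171264 UMIs.

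A floor of 500 UMIs and a ceiling of 10% for mitochondrial UMIs were applied to each cell. Classes were set by marker UMIs (stromal 3, macrophage 1, neutrophil 1, endothelial 2, hepatocyte 10, tubule 5, B 2, T 2), and cells that met several rules were set aside. No doublet caller was run. UMIs were summed per class and library, as CPM with exact Poisson intervals at 95%. Folds are ratios of the CPM, log2 ratios had a pseudocount of 1 CPM, and their exact binomial intervals had none. Shares of cells were taken after thinning to 500 UMIs, with exact binomial intervals. With 1 library per condition no test was made, and intervals cover counting error only. A count of 0 was given the limit of 3 UMIs. A gene was counted as called at 2-fold, pseudocount included, with 10 UMIs or more in the class. Named genes were the 7 members, genes of the lists and up to 5 genes most like each member, among genes with 50 UMIs or more in sums of at least 20 cells. Members and lists were chosen with earlier results of these data known. The ratio and its interval were tested on simulated sums of macrophages and neutrophils of liver PC, for genes expected at 20 UMIs or more. No spread between cells was simulated, so the intervals of classes with few cells were not tested. Python 3.11.15, NumPy 2.4.6, SciPy 1.17.1, pandas 2.3.3 and Biopython 1.88 were used, and gene positions came from GENCODE (GRCm38).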

Additional observations from a re-analysis of the deposited data

Results flagged for a closer look

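Barcodes under 500 UMIs, which no comparison used, held signal of 2 members at least 2-fold above that of the kept cells of the same library, among sums of 10 or more UMIs whose 95% interval did not overlap that of the kept cells. In kidney PBMC, Hp had 1390 CPM in 8857 such barcodes and 526 CPM in kept cells, and Lrg1 had 326 CPM and 97.3 CPM. In kidney TIL, Hp had 126 CPM in 7995 such barcodes and 54.8 CPM in kept cells. In heart and liver PBMC the same ratio was between 1.05 and 1.19 for both genes.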

How the results depend on the processing

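Of 90 ratios over B and T cells, those with over 3 UMIs on both sides were recomputed under 8 alternative settings and 1 more added after seeing the data, which left 41 with B cells alone, 74 at 1000 UMIs, 81 with doubled thresholds and 88 with T cells alone. In liver PC, keeping mixed cells in each class moved all 7 main values on the log2 scale, to 5.74 (Saa1 in hepatocytes), 6.0 (Saa2 in hepatocytes), 2.63 (Saa3 in stromal cells), 0.99 (Hp in neutrophils), 1.53 (Lrg1 in neutrophils), -0.27 (Orm1 in neutrophils) and 0.39 (Cp in macrophages). Doubled marker thresholds gave 7.14 for Saa1, 2.43 for Hp, 3.64 for Lrg1 and, below 2-fold, 0.86 for Cp. B cells alone as background gave 6.54 for Saa1, 3.98 for Saa3 and 3.07 for Lrg1, and no value for Cp and Orm1, at 0 and 3 UMIs in B cells. A pseudocount of 10 CPM gave 6.54 for Saa1, 7.00 for Saa2 and 0.76 for Cp. Means over cells gave 6.43 for Saa1, 6.85 for Saa2, 3.33 for Saa3 and 1.99 for Hp. Without the 5% of cells with the most UMIs, Saa1 was 6.33 and Saa2 6.83. A floor of 1000 UMIs gave 2.56 for Lrg1, and leaving out barcodes held by another library (the added alternative) gave 3.72 for Saa3.

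Over all classes and libraries, of 46 ratios past 2-fold 45 kept their direction and 29 stayed past 2-fold with mixed cells kept. Past 2-fold stayed 38 of 41 with doubled thresholds, 41 of 46 as means over cells, 42 of 46 with a pseudocount of 10 CPM, 42 of 46 without the 5% of cells with the most UMIs and 45 of 46 without shared barcodes. With T cells alone, B cells alone and a floor of 1000 UMIs, all 45, 17 and 36 that could be recomputed did. The exception in direction was Orm1 in endothelial cells of liver PC, from 4 UMIs, at -0.09. Exchanging the 2 TIL labels turns the sign of each macrophage difference by definition, and nothing was recomputed. With the labels exchanged these read log2 4.91 (Saa1), 1.98 (Saa3), 2.28 (Hp), 0.48 (Lrg1) and 1.75 (Cp), with the opposite sign to that under the labels as given. The cause of the shifts under the other settings was not tested. No paired analysis was possible because no result comes from a test, the labels give no replicate numbers and no group has a second library.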
